A study of Mus musculus with 6 samples.

Results

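Cytoplasmic dynein is the motor that carries cargo along microtubules towards their minus ends, and LIS1, the product of Pafah1b1, is the regulator that helps it adopt an active form. The genes described here encode LIS1 and partners of it, chains of dynein, subunits of dynactin and cargo adaptors. They were chosen by symbol: every row of the deposited expression table that starts with Dync, Dynl or Dctn, and Pafah1b1, Pafah1b2, Pafah1b3, Nde1, Ndel1, Bicd1, Bicd2, Hook1, Hook2, Hook3, Spdl1 and Ninl. Pseudogene symbols and Dctpp1, which is no dynactin gene, were dropped. This gave 38 genes of 18019 in the table, by a rule that reads symbols and no expression values but was written with earlier results of these data known.

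RNA was sequenced from RAW264.7 cells, a mouse macrophage line, all induced with lipopolysaccharide (LPS), a component of bacterial outer membranes that macrophages sense as a danger signal. A group treated with TPPU, an inhibitor of soluble epoxide hydrolase (n = 3), was compared with a group labelled control (n = 3). Both groups were LPS-induced. The control titles carry the letters NC, and the labels enter both group names under genotype. No dose or time is stated in the labels, all libraries carry the same batch number, and separate cultures are not mentioned. The p-values therefore set a group difference only against the spread among these libraries, and that spread may be technical. The descriptions of the TPPU samples also cite, for another table that was not used here, a column name with sh-LIS1, the form usual for a short hairpin against LIS1. LIS1 is therefore described before the other genes.

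The motor is built in layers. A pair of heavy chains holds the ATP-driven motor domains, and intermediate, light intermediate and light chains are assembled on their tails. Dynactin, a second large complex, and a coiled-coil adaptor such as a BICD or Hook protein join dynein to a cargo and make it move over long distances, while LIS1 and the NudE proteins help that complex to form. In macrophages dynein is known for moving endosomes, phagosomes and lysosomes towards the cell centre.

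Libraries held about 17700000 to 22800000 fragments, as recovered from the steps of the deposited values. FPKM is a fragment count divided by gene length and by library size. The length that fits the deposited values joins all annotated exons of a gene, so rankings between genes depend in part on annotation. Hook3, for example, had 505 to 715 fragments over 28486 bases (mean 1.07 FPKM), and Dynlt1b 320 to 511 over 771 bases (mean 27.4 FPKM). Levels and abundance below mean FPKM. One library differed from the rest, control replicate 3. On the first principal component of all tested genes it lay at 31.4, with the other 5 between -14.0 and 5.02. Across 9524 genes, its departure from each gene's mean ran with transcript GC content at a Spearman's rho of 0.61, given as a description. Its values enter every control mean below, and Pafah1b1, Ndel1, Dync1h1, Pafah1b2, Dctn1, Dctn5, Bicd2, Dynlt1a, Dynlt3 and Dync2h1 are also given without it. Of 10 macrophage markers 9 were tested, with summed levels of 2060 to 2170 FPKM in TPPU libraries and 1940 to 2320 in control libraries, while Mrc1 was at 0 to 0.0148 FPKM. All TPPU values lay above all controls in 2 of the 9, Adgre1 (means 269 and 220 FPKM) and Lyz2 (326 and 260), and below them in 0. Over all tested genes 7.48% lay above and 7.88% below, and 0 of the 9 markers passed the test used below. Fibroblast markers summed to 3.0 to 3.79 FPKM with TPPU and 3.54 to 7.96 in control, chondrocyte markers to 0.0549 to 0.736 and 0.107 to 0.417, epithelial markers to 0.247 to 1.03 and 0.136 to 0.346, and T and B cell markers to 0.0754 to 0.304 and 0.174 to 0.395. The 9 axonemal dynein heavy chain genes measured, which mark ciliated cells, summed to 0.474 to 0.651 FPKM in TPPU libraries and 0.631 to 0.924 in controls.

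Of the 38 genes, 32 passed the filter, which asked for 1 FPKM or more in 3 or more libraries. None of the 32 reached it through the libraries of 1 group alone, and 30 were at or above 1 FPKM in all 6. Levels spanned from Hook3, at a mean of 1.07 FPKM over all libraries, to Dynlrb1 at 58.4 FPKM, and 25 genes averaged at least 5 FPKM. The most abundant member of each role was Pafah1b2 at 20.3, Ndel1 at 25.8, Dync1li1 at 31.7, Dynlrb1 at 58.4, Dynlt2b at 12.1, Dctn2 at 35.4 and Bicd2 at 14.3 FPKM.

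**Figure D1:**
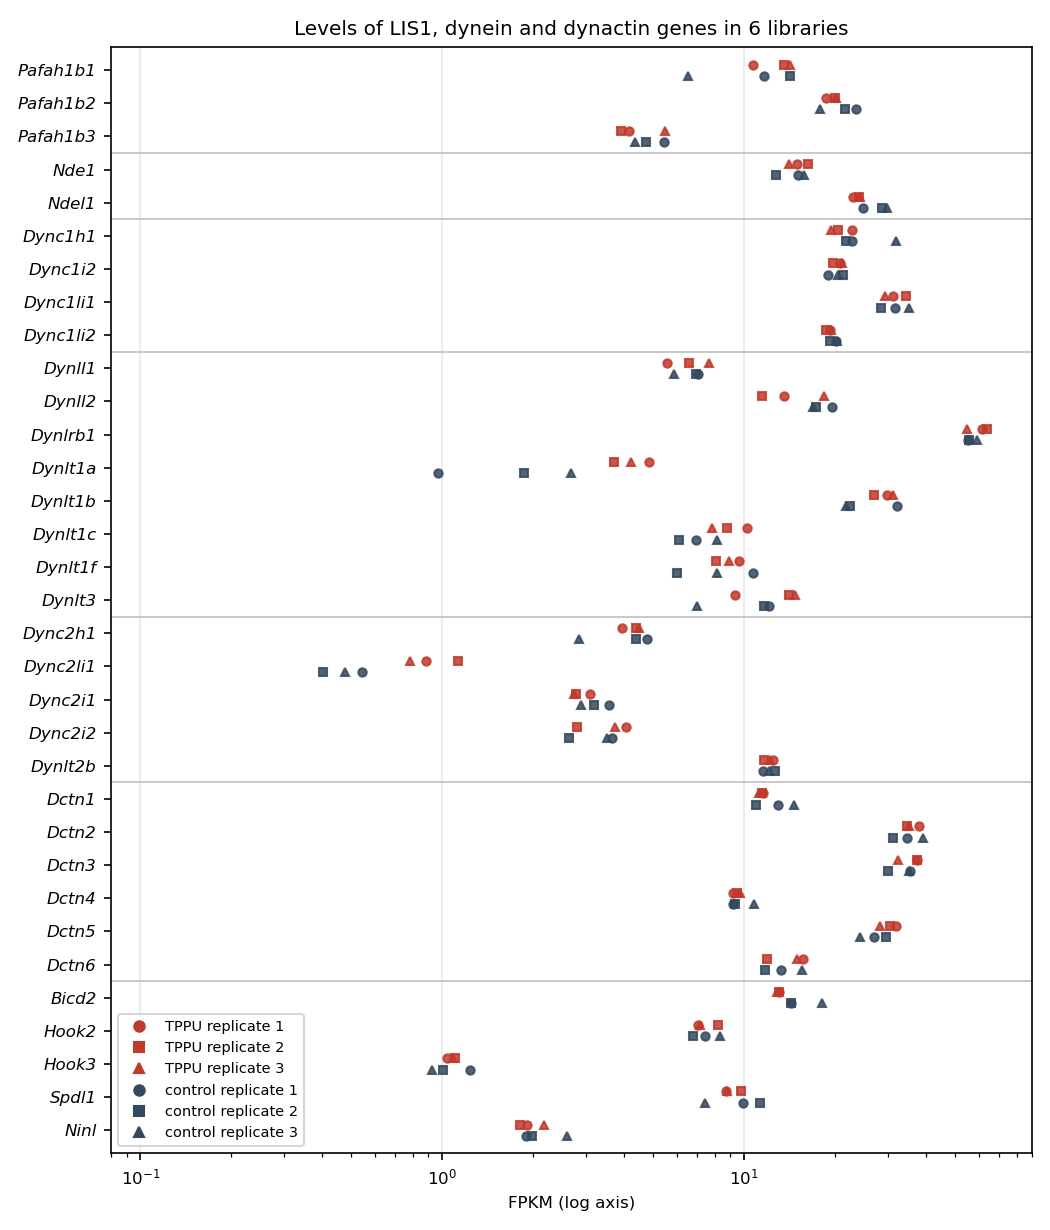
FPKM (log axis) of the 32 tested genes and Dync2li1 in each library, TPPU replicates in red above control replicates in dark blue, with lines between the roles (LIS1 group, NudE, dynein-1 chains, light chains, dynein-2, dynactin, adaptors). The groups overlap in most rows, and the TPPU points of Dynlt1a, 3.7 to 4.83 FPKM, stand to the right of its control points, 0.967 to 2.67 FPKM.

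No gene of the machinery differed between TPPU and control at the threshold used. In such bulk RNA, fewer cells of a type and less RNA per cell cannot be told apart. With limma on log2(FPKM + 1), 0 of the 32 genes passed an adjusted p of 0.05 in either direction, and over all 9728 genes tested 0 did, or 0% (smallest limma adjusted p 0.397 among the 32 and 0.116 over all). At an unadjusted p under 0.05 there was 1 higher gene, Dynlt1a, and 0 lower ones, while 4.19% of all tested genes were higher and 3.7% lower by that rule. Voom, a count-based form of limma added after the data were seen and run on recovered fragments, also called 0, with 1 of 29 genes at an unadjusted p under 0.05. All TPPU values lay above all control values for 1 gene, Dynlt1a, and below them for 2, Ndel1 and Bicd2, where 7.48% and 7.88% of all tested genes did so. The median log2 fold change of the 32 genes was 0.01, with 18 positive and 14 negative changes. Over all tested genes the median was 0.02, with 5291 positive and 4437 negative changes. The size of the changes had a median of 0.09 on the log2 scale, against 0.12 over all tested genes, and 19 of the 32 were smaller than 0.1.

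**Figure D2:**
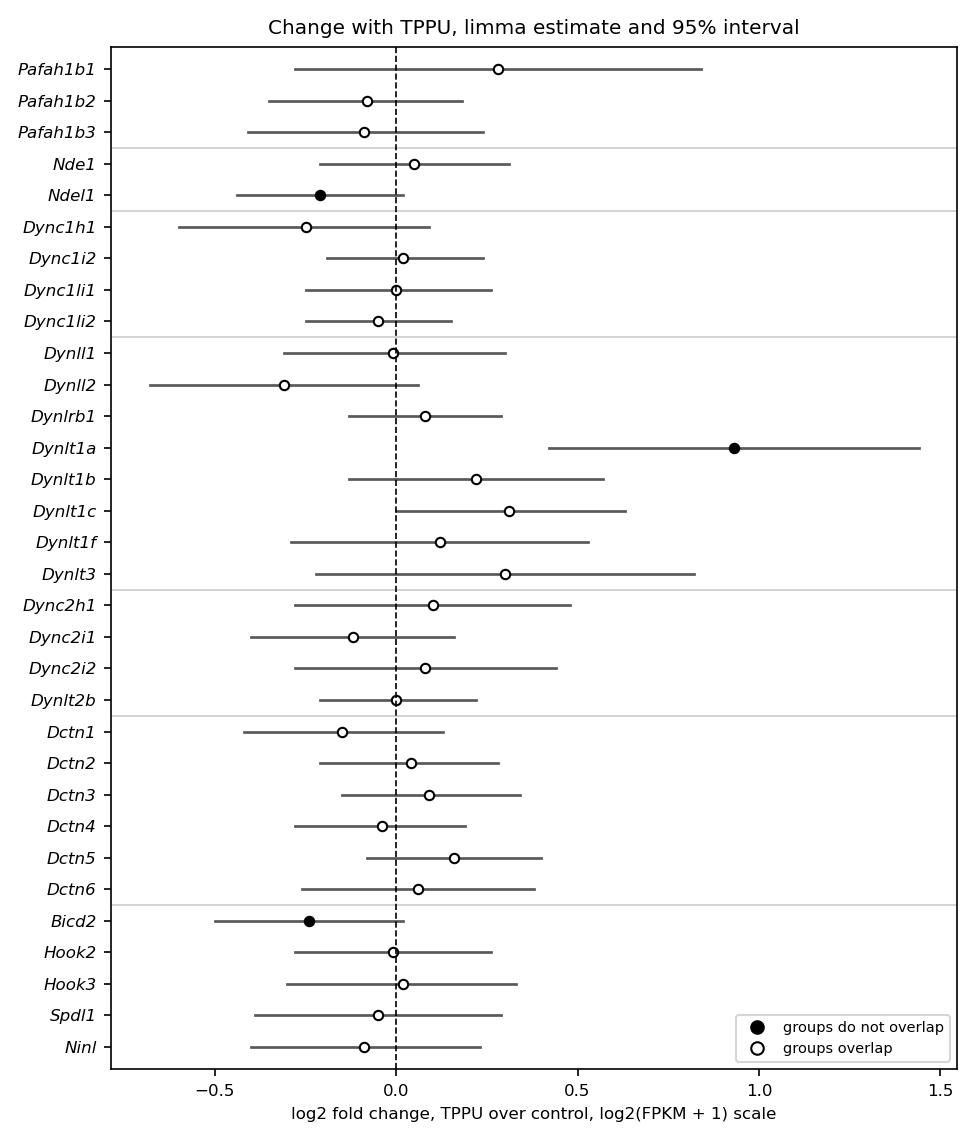
Log2 fold change of TPPU over control on the log2(FPKM + 1) scale for the 32 tested genes, as limma estimates (points) with 95% intervals (bars). Filled points mark the 3 genes whose groups do not overlap, Ndel1 (-0.21), Dynlt1a (0.93) and Bicd2 (-0.24), and the interval of Dynlt1a, 0.42 to 1.44, is the one that lies wholly above 0.

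Pafah1b1, which encodes LIS1, was not detectably lower in the libraries whose labels cite sh-LIS1. Pafah1b1 (ENSMUSG00000020745, chr11:74673949-74724670 on the minus strand, mm10) measured 10.7, 13.5 and 14.2 FPKM in TPPU replicates 1, 2 and 3, and 11.7, 14.2 and 6.52 FPKM in control replicates 1, 2 and 3. The lowest value of all was that of control replicate 3, and the TPPU values lay within the range of the controls but for TPPU replicate 3, which was level with control replicate 2 to 3 digits. The values rest on 1873, 2966 and 2907 fragments with TPPU and on 1986, 3078 and 1198 in control. Means were 12.8 ± 1.87 FPKM with TPPU and 10.8 ± 3.92 in control (SD, n = 3 each), a log2 fold change of 0.28 (SE 0.24, 95% interval -0.28 to 0.84, limma adjusted p = 0.773). The lower bound corresponds to a ratio of 0.824, TPPU over control, in FPKM + 1 and not in FPKM itself. Without control replicate 3 the change was -0.02 (SE 0.14, interval -0.34 to 0.31), with bounds at ratios of 0.79 and 1.24 in FPKM + 1. With a trend on transcript GC content removed the change was 0.19. The transcript of Pafah1b1 has a GC content of 40.5%, near the low end of these genes, and the part of GC content in the value of control replicate 3 was not tested.

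LIS1 is also the non-catalytic subunit of a platelet-activating factor acetylhydrolase, whose catalytic subunits are encoded by Pafah1b2 and Pafah1b3. Pafah1b2 measured 18.7, 20.1 and 20.2 FPKM in TPPU replicates 1, 2 and 3, and 23.4, 21.7 and 17.9 FPKM in control replicates 1, 2 and 3, so that the controls held both the highest and the lowest value. Pafah1b3 measured 4.51 ± 0.826 FPKM with TPPU and 4.83 ± 0.544 in control. Their log2 fold changes were -0.08 (SE 0.12) and -0.09 (SE 0.14), and the groups overlapped for both genes. Single libraries moved both values: Pafah1b2 was at -0.19 without control replicate 3 and -0.0024 without control replicate 1, and Pafah1b3 at -0.21 without TPPU replicate 3 and -0.0092 without TPPU replicate 2. Pafah1b2 had a higher level than LIS1 itself in every library, and Pafah1b3 a lower one.

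The NudE proteins tether LIS1 to dynein. Neither of their genes passed the test, and the genes were not compared with each other. Ndel1 (chr11:68821434-68871858, mm10) measured 23.0, 24.1 and 24.3 FPKM in TPPU replicates 1, 2 and 3, and 24.9, 28.7 and 29.9 FPKM in control replicates 1, 2 and 3. Every TPPU library was below every control library, by a narrow margin at control replicate 1. The log2 fold change was -0.21 (SE 0.10, 95% interval -0.44 to 0.02, limma adjusted p = 0.63), and -0.16 without control replicate 3. Nde1, the close relative of Ndel1, measured 15.0, 16.3 and 14.1 FPKM with TPPU and 15.1, 12.8 and 15.8 FPKM in control, with a log2 fold change of 0.05 (SE 0.11) and groups that overlap.

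The chains of dynein-1, the cytoplasmic transport motor, had TPPU and control values that overlap in all 4 tested genes. Dync1h1 encodes the heavy chain, the motor subunit itself (chr12:110601452-110666945, mm10). Dync1h1 measured 22.8, 20.5 and 19.4 FPKM in TPPU replicates 1, 2 and 3, and 22.8, 21.7 and 31.9 FPKM in control replicates 1, 2 and 3. One control library, replicate 3, was far above the rest, and the other 5 lay within a range of 19.4 to 22.8. The log2 fold change was -0.25 (SE 0.15, limma adjusted p = 0.69), and it was -0.09 without control replicate 3, in which the part of GC content (53.7% in this transcript) was not tested. The intermediate chain gene Dync1i2, whose product binds dynactin, measured 20.6 ± 0.742 FPKM with TPPU and 20.2 ± 1.23 in control. The light intermediate chain genes, whose products bind the adaptors, were both well expressed. Dync1li1 measured 31.3, 34.5 and 29.4 FPKM with TPPU and 31.6, 28.4 and 35.2 in control, and the TPPU values lay inside the range of the controls. Dync1li2 measured 19.1 ± 0.42 FPKM with TPPU and 19.9 ± 0.605 in control, and 7.08% of its exon bases overlap exons on the opposite strand. Of the 4 tested genes 3 had log2 fold changes within 0.1 of 0. The other intermediate chain gene, Dync1i1, known for its expression in neurons, had 0 to 1 fragments in TPPU libraries and 0 to 5 in controls.

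In control replicate 3 LIS1 and the heavy chain lay at opposite ends of their ranges. The ratio of Pafah1b1 to Dync1h1, both in FPKM, was 0.468, 0.659 and 0.732 in TPPU replicates 1, 2 and 3, and 0.511, 0.655 and 0.204 in control replicates 1, 2 and 3. That library held the lowest or the highest of the 6 values for 18 of the 32 genes, and for 62.5% of all tested genes. Among the 29 tested genes with an annotated transcript, GC content and the departure from the mean had a Spearman's rho of 0.58 in that library and of -0.42 in TPPU replicate 3. These are descriptions across genes that share the same libraries.

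**Figure D3:**
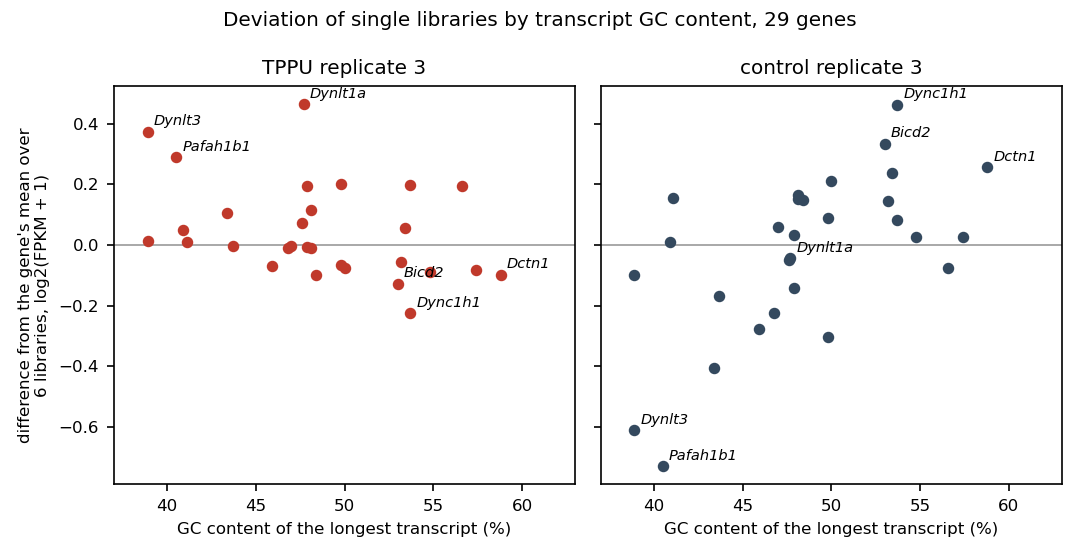
Deviation of each of 29 genes from its own mean over 6 libraries, on the log2(FPKM + 1) scale, against the GC content of its longest transcript in percent, for TPPU replicate 3 (left) and control replicate 3 (right). In control replicate 3 Pafah1b1 and Dynlt3, at 40.5% and 38.9% GC, are the lowest points and Dync1h1, at 53.7%, is the highest.

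**Figure D4:**
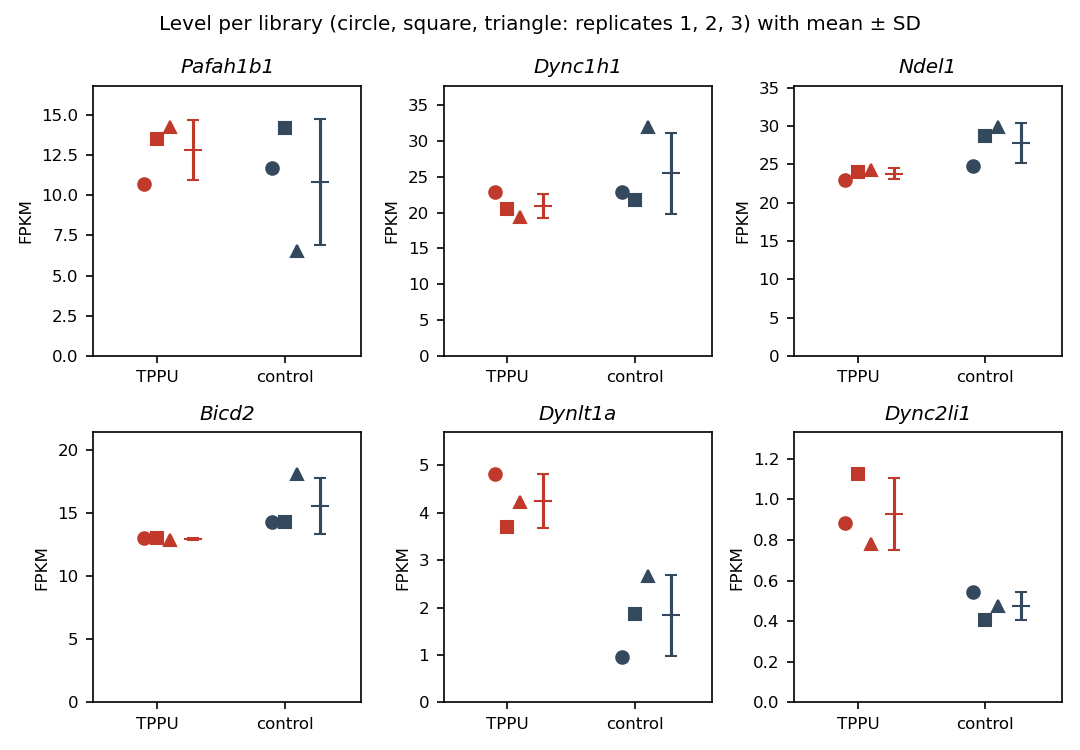
FPKM per library for Pafah1b1, Dync1h1, Ndel1, Bicd2, Dynlt1a and Dync2li1, TPPU left of control, with mean ± SD beside the points (n = 3 each). The groups overlap for Pafah1b1 and Dync1h1, where control replicate 3 (triangle) is at 6.52 and 31.9 FPKM, and do not overlap for the other 4 genes.

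The light chains held the change with the smallest p. They are small dimeric proteins at the base of the motor, and the Dynlt1 family, which binds several membrane proteins as cargo, is present in the mouse as near-identical copies on chromosome 17. The 4 copies measured here, Dynlt1a, Dynlt1b, Dynlt1c and Dynlt1f, lie within 350.0 kb (chr17:6306340-6655900, mm10). Their coding sequences of 342 bases were compared in the GENCODE M21 transcripts, counting from 1 at the A of the start codon. Dynlt1c and Dynlt1f are identical to Dynlt1a, and Dynlt1b differs from it by 1 base, C21A. The opening 60 coding bases of each copy are shown 5′ to 3′ with position 21 in capitals, since that 1 base is all that sets Dynlt1b apart within the coding part, and nothing there sets the other 3 apart.
Dynlt1a: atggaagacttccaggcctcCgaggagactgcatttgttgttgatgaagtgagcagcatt
Dynlt1b: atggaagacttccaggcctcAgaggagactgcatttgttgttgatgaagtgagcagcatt
Dynlt1c: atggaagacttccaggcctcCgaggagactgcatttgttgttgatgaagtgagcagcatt
Dynlt1f: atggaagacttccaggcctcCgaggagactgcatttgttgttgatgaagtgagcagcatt
Of all windows of 100 bases in the chosen transcript of each copy, 43.9% in Dynlt1a, 82.0% in Dynlt1b, 86.5% in Dynlt1c and 85.1% in Dynlt1f also occur in a transcript of another copy or of the Dynlt1-ps1 pseudogene. How the authors counted fragments that match several copies is not given in the sources used here, so the split between the copies is uncertain.

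Dynlt1a (chr17:6306340-6317500 on the minus strand) measured 4.83, 3.7 and 4.23 FPKM in TPPU replicates 1, 2 and 3, and 0.967, 1.86 and 2.67 FPKM in control replicates 1, 2 and 3. All 3 TPPU libraries lay above all 3 controls, and the controls differed more among themselves than the TPPU libraries did. These values rest on 375, 360 and 383 fragments with TPPU and on 73, 179 and 218 fragments in control. The log2 fold change was 0.93 (SE 0.22, 95% interval 0.42 to 1.44), with an unadjusted limma p of 0.00273 and a limma adjusted p of 0.397 over all genes, so it did not pass. It was 1.14 without control replicate 3 and 0.69 without control replicate 1. Since the groups do not overlap, leaving out a library, weighting the libraries or another pseudocount could not turn the sign of this change. Across the 15 alternatives that tested Dynlt1a the change ran from 0.69 to 1.29, with limma adjusted p from 0.0114 to 0.936. The adjusted p fell under 0.05 in 1 of them, in which the libraries were weighted by quality and control replicate 1, which has the lowest value, received the largest weight at 3.84 and control replicate 3 the smallest at 0.191. Exons of Tmem181a and Gm26848 on the opposite strand overlap 14.6% of the exon bases of Dynlt1a, and whether the counting used strand is not stated.

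The other copies overlapped between the groups. Dynlt1b measured 29.3 ± 2.17 FPKM with TPPU and 25.4 ± 5.77 in control, Dynlt1c 8.97 ± 1.21 and 7.04 ± 1.02, and Dynlt1f 8.88 ± 0.797 and 8.27 ± 2.35, in the same order. The smallest p among these was that of Dynlt1c, with a log2 fold change of 0.31 (SE 0.14, limma adjusted p = 0.627). Summed over the 4 copies, which does not depend on how kept fragments are split among them but does on whether fragments matching several copies were kept, there were 117, 99.0 and 104 CPM (fragments scaled to library size) in TPPU replicates 1, 2 and 3, and 93.8, 69.9 and 88.3 in control replicates 1, 2 and 3. The TPPU sums lay above the control sums, 107 ± 9.46 against 84.0 ± 12.5 CPM (SD, n = 3 each), a log2 difference of 0.35. Summed as FPKM, which divides each copy by its own length, the groups overlap, with 54.6, 47.5 and 52.2 FPKM in TPPU libraries and 50.6, 36.3 and 40.7 FPKM in control libraries. Without Dynlt1a the sum of the other 3 was 96.8, 83.2 and 86.1 CPM with TPPU and 89.7, 61.9 and 76.9 in control, and these overlap. Dynlt1a took 17.5%, 16.0% and 17.3% of the fragments of the 4 copies in TPPU libraries and 4.4%, 11.4% and 12.9% in control libraries.

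**Figure D5:**
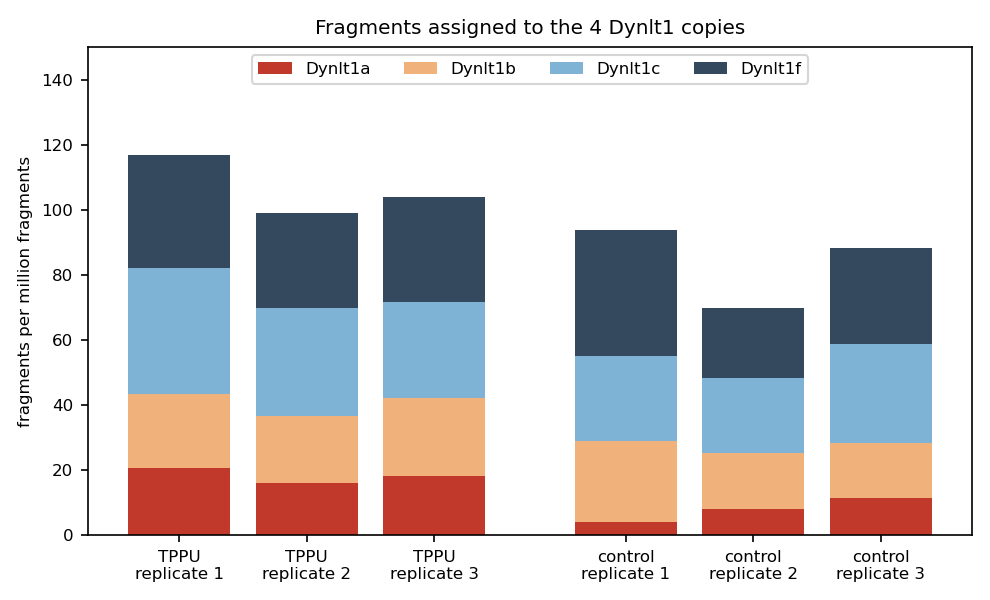
CPM (fragments scaled to library size) assigned to each of the 4 Dynlt1 copies, stacked, in the TPPU libraries (left) and the control libraries (right). The stacks reach 99.0 to 117 with TPPU and 69.9 to 93.8 in control, and the lowest segment, Dynlt1a, is 15.8 to 20.6 with TPPU and 4.13 to 11.4 in control.

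The remaining light chains showed no separation of the groups. Dynlrb1, a roadblock light chain, was the most abundant of the 38 genes, with 61.4, 63.9 and 54.9 FPKM in TPPU libraries and 55.2, 55.5 and 59.4 in control libraries. The lowest value was in TPPU replicate 3, and the groups overlap. Dynll2, an LC8 light chain that also serves as a hub for many other proteins, measured 13.5, 11.5 and 18.4 FPKM with TPPU and 19.6, 17.3 and 17 FPKM in control. In Dynll2, 2 of the 3 TPPU libraries were below all controls and TPPU replicate 3 was among them, with a log2 fold change of -0.31 (SE 0.16, limma adjusted p = 0.651). It was -0.17 without TPPU replicate 2 and -0.49 without TPPU replicate 3. Its relative Dynll1 measured 6.6 ± 1.05 FPKM and 6.6 ± 0.65 FPKM in TPPU and control libraries. Dynlt3, a Dynlt1 relative on the X chromosome, was lowest in control replicate 3 at 6.99 FPKM and next lowest in TPPU replicate 1 at 9.36, with the other 4 libraries at 11.7 to 14.8 (log2 fold change 0.30, SE 0.23, limma adjusted p = 0.74). Without control replicate 3 the change of Dynlt3 was 0.07, and without TPPU replicate 1 it was 0.49.

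Dynein-2 is the motor of intraflagellar transport, which works in cilia, and its heavy and intermediate chain genes were at lower levels than those of dynein-1 that were tested. The heavy chain gene Dync2h1 measured 4.27 ± 0.286 FPKM with TPPU and 4.0 ± 1.02 in control, the intermediate chain genes Dync2i1 2.87 ± 0.187 and 3.21 ± 0.345 and Dync2i2 3.52 ± 0.656 and 3.27 ± 0.551, TPPU before control. The light chain gene Dynlt2b, the most abundant of them, measured 12.5, 11.7 and 12.2 FPKM with TPPU and 11.5, 12.6 and 12.1 in control. All 4 overlapped between groups, with log2 fold changes from -0.12 to 0.10. That of Dync2h1 was 0.10 (SE 0.17), and -0.08 without control replicate 3.

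Dync2li1, the light intermediate chain of dynein-2, was below the filter. It measured 0.881, 1.13 and 0.781 FPKM in TPPU replicates 1, 2 and 3, and 0.544, 0.404 and 0.476 FPKM in control replicates 1, 2 and 3. Every TPPU library was above every control library, on 30, 48 and 31 fragments with TPPU and 18, 17 and 17 fragments in control. The mean difference was 0.38 on the log2(FPKM + 1) scale, and a two-sided exact permutation test gave p = 0.1, the smallest that 3 libraries against 3 allow. Any gene whose groups do not overlap reaches that p, and Dync2li1 is named for that lack of overlap. The share of such genes below the filter was not counted.

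Dynactin, the cofactor that links dynein to cargo, was covered only by genes whose symbols start with Dctn, and all 6 of these passed the filter. Dctn1 encodes p150Glued, which binds microtubules and the dynein intermediate chain, and measured 11.6, 11.5 and 11.2 FPKM with TPPU and 12.9, 10.9 and 14.6 FPKM in control. The TPPU values lay within the range of the controls, with a log2 fold change of -0.15 (SE 0.12, limma adjusted p = 0.761), or -0.05 without control replicate 3. Dctn2, which encodes dynamitin of the shoulder, measured 38.0, 34.6 and 35.1 FPKM with TPPU and 34.6, 31.1 and 39.3 in control. Dctn3, of the same shoulder, measured 35.8 ± 2.93 FPKM with TPPU and 33.6 ± 3.08 in control. The ranges of these shoulder genes overlap, and both stood above Dctn1 in every library. Of the pointed-end genes, Dctn5 measured 30.2 ± 1.76 and 27 ± 2.71 FPKM, Dctn6 14.2 ± 2.0 and 13.5 ± 1.9, and Dctn4 9.45 ± 0.247 and 9.78 ± 0.884, TPPU before control. Dctn5 had the smallest p of the 6, at a log2 fold change of 0.16 (SE 0.10, limma adjusted p = 0.717), or 0.09 without control replicate 3. The 6 changes ran from -0.15 to 0.16. Exons on the opposite strand overlap 11.8% of the exon bases of Dctn6.

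Among the adaptors, Bicd2 was the most abundant. Bicd2 joins dynein to Rab6 vesicles and to the nuclear envelope (chr13:49341585-49387026, mm10), and measured 13.0, 13.0 and 12.9 FPKM in TPPU replicates 1, 2 and 3, and 14.3, 14.4 and 18.2 FPKM in control replicates 1, 2 and 3. The TPPU libraries were nearly equal and all below the controls, of which replicate 3 was the highest. The log2 fold change was -0.24 (SE 0.11, 95% interval -0.50 to 0.02, limma adjusted p = 0.63), and it was -0.13 without control replicate 3. Hook proteins link dynein to endosomes and the centrosome, and Hook2 measured 7.45 ± 0.645 and 7.52 ± 0.787 FPKM and Hook3 1.07 ± 0.0308 and 1.06 ± 0.159 FPKM in TPPU and control. Spdl1, or Spindly, which recruits dynein to kinetochores, measured 9.08 ± 0.59 and 9.54 ± 1.94 FPKM, and the centrosomal Ninl 1.96 ± 0.184 and 2.16 ± 0.383. Of the 5 tested adaptors 4 had log2 fold changes within 0.1 of 0.

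Besides Dync1i1, 4 genes had almost no signal. Bicd1 had 0 to 2 fragments in each library of either group, and Hook1 had 1 to 5 in TPPU libraries and 0 to 3 in controls. Dynlt2a1 was at 0 to 0.0652 FPKM with TPPU and 0 to 0.0783 in control, and Dynlt4 at 0 to 0.0395 and 0 to 0.08 FPKM. A count of 0 allows up to 3 fragments, which in a gene of 1 kb corresponds to 0.132 to 0.17 FPKM in these libraries, so differences among these genes were not detectable at this depth.

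Further genes of the pathway, from lists outside the 38, also held 0 calls. Of 10 tested LIS1 partners 0 passed, 8 had positive changes and the median was 0.13. Over all tested genes 5291 changes were positive and 4437 negative. All TPPU values lay above all controls in 3 of the 10 (Nudc, Nudcd1 and Cdk5rap2), and in 7.48% of all tested genes. Nudc, whose product helps to stabilise LIS1, measured 74.9 ± 1.96 FPKM with TPPU and 67.2 ± 5.98 in control (SD, n = 3 each). Of 14 other tested adaptors 0 passed and 10 had negative changes, with a median of -0.08. The sign count depended on control replicate 3. Without it Rab11fip3, Mapk8ip3, Hap1 and Ccdc88c turned positive, at 0.02, 0.04, 0.19 and 0.0027, and Ccdc88a turned negative, at -0.09. All TPPU values lay below all controls in 2 of the 14 (Trip11 and Ccdc88b), and in 7.88% of all tested genes. Trip11, or GMAP-210 of the Golgi, measured 2.38 ± 0.285 FPKM with TPPU and 3.33 ± 0.229 in control (log2 fold change -0.36, SE 0.12, limma adjusted p = 0.564). Of 13 tested genes of kinesins, motors that run mostly towards the plus end, 0 passed and 9 had negative changes, with a median of -0.05 and 3 wholly lower with TPPU (Klc1, Kif1b and Kif1c). Klc1, a kinesin-1 light chain, measured 23.0, 23.3 and 21.8 FPKM with TPPU and 26.1, 25.6 and 33.8 in control, a log2 fold change of -0.31 (SE 0.12, limma adjusted p = 0.6), or -0.18 without control replicate 3. Of 9 tested plus-end tracking genes 0 passed, with a median of 0 and 3 wholly lower with TPPU (Mapre3, Clip2 and Clasp1). Over all tested genes 7.88% were wholly lower, and neither the kinesins nor the plus-end tracking genes were tested as a set.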

How the data were processed

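Poly(A) RNA was captured on oligo(dT) beads, fragmented and made into dUTP strand-marked libraries, per the labels' protocols. The authors deposited 1 table of FPKM for 18019 gene symbols in 6 libraries, on mm10 per the submitters' processing notes. Which aligner, counter and annotation they used is not given in the sources here. Depth was recovered from the steps of low values: with exon lengths of GENCODE M21 (same build), 95.9% to 96.6% of values of 1 to 50 fragments were whole within 0.1, against 20.0% by chance. The filter asked for 1 FPKM or more in 3 or more libraries (9728 genes). The test was limma 3.58.1 under R 4.3.3, on log2(FPKM + 1), with eBayes fitted to a trend and no covariate beside TPPU or control, two-sided, with Benjamini-Hochberg adjustment over all tested genes and a threshold of 0.05. That scale understates changes of low genes. Genes below the filter were compared by an exact permutation test.

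The genes, lists and tests were chosen with earlier results of these data known. Named in full were Pafah1b1, Dync1h1, Dctn1, genes with an unadjusted p under 0.05 or groups that do not overlap, the most abundant gene of each role, and up to 3 further genes per role by p. Alternatives were a pseudocount of 0.1, other filters, scalings, weights, GC and length trends (loess, span 0.3), a replicate block, leaving out each library, and voom on recovered fragments, which was chosen after seeing the data. On simulated data for this comparison (9728 genes, 200 altered), the share of altered genes found was 58.5% at 1.5-fold, 96.4% at 2-fold and 100% at 4-fold. The simulation drew normal noise for each gene separately, with no library set apart as control replicate 3 was. It altered only better expressed genes, on the log2(FPKM + 1) scale. The shares hold for that setting and do not measure what these libraries could detect. Tables and plots were made in Python 3.11.15 (pandas 2.3.3, numpy 2.4.6, scipy 1.17.1, matplotlib 3.10.9).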

Additional observations from a re-analysis of the deposited data

How the results depend on the processing

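Over all genes tested, 169 were called with sample quality weights (89 higher, 80 lower) and 1 with the GC trend removed, against 0 in the reported fit, and leaving out each library gave 0 to 6, with the 6 without TPPU replicate 1. Among the 32 genes, 1 (Dynlt1a, log2 fold change 1.23) was called with quality weights and 0 under each other alternative, the 6 left-out libraries included. The median log2 fold change over the genes was -0.02 with quantile normalization and with quality weights, and -0.03 to 0.02 with a library left out. For Pafah1b1, leaving out each library gave -0.02 to 0.49, with the negative value without control replicate 3. Of 353 values for the 23 other named genes under 16 alternatives, 23 changed sign, all in 9 genes with changes near 0. With quantile normalization Dync1i2 was at -0.0002, Dync1li1 at -0.01 and Dynlt2b at -0.03. With the GC trend removed Dync1i2 was at -0.06 and Dync1li1 at -0.0021, and with the length trend removed Dync1li1 was at -9e-05. With quality weights Dync2h1 was at -0.08, Dync2i2 at -0.06 and Ninl at 0.00032. With a library left out, Nde1 ran from -0.03 to 0.11, Dync1i2 from -0.02 to 0.06, Dync1li1 from -0.07 to 0.08, Dync2h1 from -0.08 to 0.21, Dync2i2 from -0.03 to 0.2, Dynlt2b from -0.03 to 0.03, Dctn2 from -0.04 to 0.12, Spdl1 from -0.2 to 0.07 and Ninl from -0.15 to 0.01. The cause was not tested.

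The reported fit did not pair libraries by replicate number. Same-numbered TPPU and control libraries had correlations of -0.3, 0.15 and -0.4 between their deviations from the group means, and the other combinations ran from -0.45 to 0.51. Such correlations cannot show whether the samples were handled as pairs. With the replicate block 0 genes were called over all genes and 0 among the 32, the median was 0.01, and Pafah1b1 stayed at 0.28 (adjusted p = 0.898).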
